A study of Zostera marina with 23 samples.

Results

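Male and female flowers of eelgrass, Zostera marina, were compared over 13 of the 23 RNA sequencing libraries of the series. All 7 male flower libraries and all 6 female flower libraries were taken, as named by both the title and the tissue label. Eelgrass is a seagrass, a flowering plant that completes its life cycle under seawater. Shoots from a wild population in the western Baltic were moved in winter to seawater tanks, where the water was warmed and the days were lengthened to bring on flowering. Every library of both sexes comes from that treatment. The labels give no genotype, plant age or dissection details, and do not say whether replicates came from separate plants. The p-values therefore measure the spread between these libraries, which may be partly technical. Female replicates 1 to 3 are early in flower development by both labels and replicates 5 and 6 are late by both. Female replicate 4 is early by its title and late by its tissue label, but its sex is not in doubt. Male flower has no stage label. The 4 root and 6 leaf libraries were used only to describe the genes that differed.

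In eelgrass, male and female flowers sit side by side on the same spadix, the flowering axis, which is enclosed in a leaf-like sheath. The female flower is in essence a pistil with an ovule, and the male flower is an anther that releases long, threadlike pollen into the water. In flowering plants studied in detail, such as Arabidopsis, mature pollen stores a limited set of very abundant messenger RNAs, many of them for cell wall enzymes and for the growth of the pollen tube. The files list genes by identifier and pair no identifier with a gene name. Marker genes of anther, pollen, pistil or leaf were therefore not checked, and gene groups are described here by their levels. In tissue samples such as these, a gene that is lower because fewer cells express it cannot be told apart from one that is lower in each cell.

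Values are given in scaled fragments, which are fragment counts per gene that the authors multiplied by 1 factor per library. Depth read from the steps between values was 5696800 to 13133089 fragments in male libraries and 10302364 to 13679075 in female libraries. On log2(scaled fragments + 1), sex accounted for the main separation. The first principal component held 73.9% of the variance and placed the 6 female libraries between -201.0 and -147.5 and the 7 male libraries between 86.7 and 220.8. Correlations over the 16414 tested genes, which are not independent replicates, were 0.357 to 0.613 between the sexes. They were 0.895 to 0.971 among female and 0.712 to 0.972 among male libraries.

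Some libraries stood apart from their groups. Male replicate 5 correlated with the other male libraries at 0.712 to 0.839, against 0.843 to 0.972 among those other 6. Male replicate 1 had the next lowest mean correlation with its own sex, at 0.8485, and the lowest depth, at 5696800 fragments. Female replicate 1 correlated with the male libraries at a mean of 0.555, against 0.440 to 0.459 for the other female libraries. Female replicate 4, the library of conflicting stage labels, correlated at 0.967 and 0.971 with the late libraries and at 0.895 to 0.928 with the early ones. The main counts are given with and without male replicate 5 and female replicate 1.

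Male flower drew a larger share of its messenger RNA from few genes than female flower did. The 100 most abundant genes of a library held 20.6% of the scaled fragments in the lowest male library, 34.9% at the median and 37.0% in the highest. In female flower the same share ran from 14.5% over 15.3% to 16.9%. The 2 ranges did not overlap, and the lowest male value was that of replicate 5. The mean share was 32.8% ± 5.91 (SD, n = 7) in male and 15.4% ± 0.906 (SD, n = 6) in female flower. This difference of 17.4 percentage points had an exact two-sided permutation p of 0.00117, the smallest that 7 against 6 libraries allow, and an adjusted p of 0.00233 over the 2 library-level measures tested.

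At the 10 most abundant genes the ranges still overlapped, at 5.26% to 12.8% in male and 4.03% to 5.46% in female flower, with male replicate 5 the lowest male library. It took 235 to 774 genes to reach 50% of a male library, with a median of 296. In the female libraries it took 1161 to 1421 genes, with a median of 1266. The single most abundant gene held 1.05% to 2.37% of a male library and 0.644% to 0.796% of a female library. Since these shares are taken within a library, they do not depend on how libraries are scaled to each other. In FPKM, where fragments are also divided by gene length, the 100 highest genes held 38.3% ± 7.43 (SD, n = 7) in male and 18.9% ± 1.09 (SD, n = 6) in female flower.

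**Figure D1:**
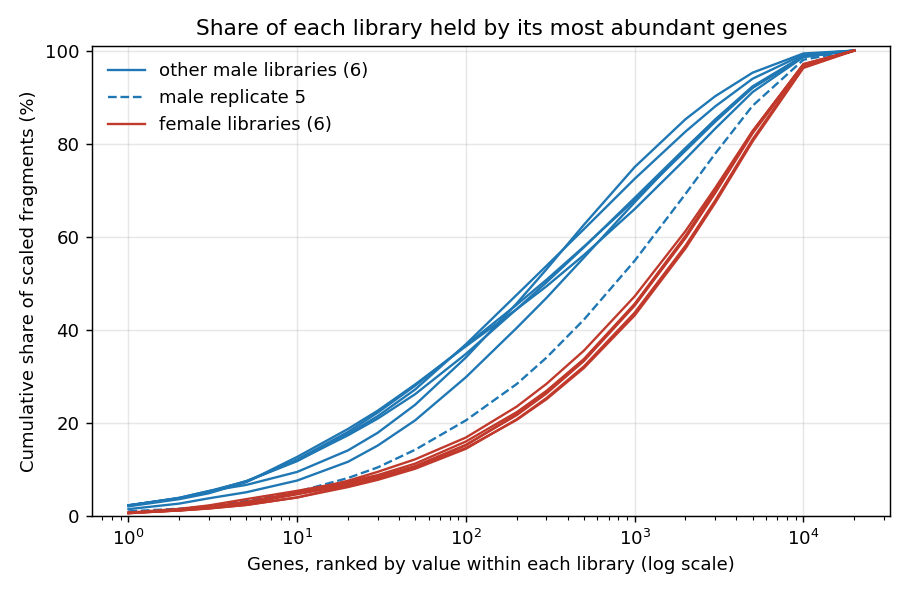
Cumulative share of scaled fragments (%, vertical axis) against the number of genes, ranked by value within each library (horizontal axis, log scale), with 1 line per library. The 7 male lines rise above the 6 female lines by 100 genes, and male replicate 5 (dashed, 20.6% at 100 genes) lies between the other male libraries and the female libraries.

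The most abundant genes of the 2 sexes were also largely different. Of the 100 genes with the highest mean in male flower and the 100 with the highest mean in female flower, 8 were in both lists, and 4 when the lists were made from FPKM. The male list had a median rank of 5960 in female flower, while the female list had a median rank of 1229 in male flower. So abundant male genes tended to sit far down the female ranking, and abundant female genes less far down the male ranking. These lists were chosen on the same values, so the ranks are descriptive.

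Scaling matters for every count of genes between the sexes, because the authors' factors left the male columns larger. The sum of a column lay between 10845975 and 25737103 for male libraries, and between 6778697 and 7687605 for female ones. At the median gene the libraries were alike, at 149 to 172 scaled fragments in male and 166 to 177 in female libraries. With columns scaled to equal sums, the median gene stood at 72.8 to 187 in male and 288 to 326 in female libraries. Moving from the deposited to the equal-sum scale lowered the typical log2 fold change of male over female by 1.21, and the median over all genes went from -0.09 to -1.28. Both scales are therefore given for the main counts, and a count with no scale named is on the deposited scale.

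On the deposited scale, more genes were called different between the sexes than were left uncalled. Of 16414 genes tested, 4721 (28.8%) were called for male flower and 4976 (30.3%) for female flower, together 59.1%. A gene was called where it changed at least 2-fold and the Benjamini-Hochberg adjusted p from limma was under 0.05. Without male replicate 5 and female replicate 1, 4814 were higher in male and 5104 higher in female flower, of which 4523 and 4767 were among the calls from all 13 libraries. With equal sums the balance tipped to female flower, at 2673 genes higher in male (16.3%) and 8791 higher in female flower (53.6%). No gene was called in opposite directions by the 2 scales.

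What the scales share is a set of 2673 genes called for male and 4976 called for female flower. All 4976 female calls on the deposited scale were also made with equal sums, as were 56.6% of the male calls. Equal sums lowered the typical log2 fold change by 1.21. That the female calls stayed and no call reversed follows largely from this shift, so it is no independent check. The other 2048 male calls were moderate differences, with a median log2 fold change of 1.55 on the deposited and 0.35 on the equal-sum scale, and for 425 of them the sign turned. Conversely, 3815 genes were called higher in female flower with equal sums only. Few genes could be shown to be alike on either scale. The 95% interval of the fold change lay within 2-fold in both directions for 2423 genes on the deposited scale and for 1462 with equal sums. It did so on both scales for 25 genes, a count that is limited by the shift of 1.21 between the scales.

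**Figure D2:**
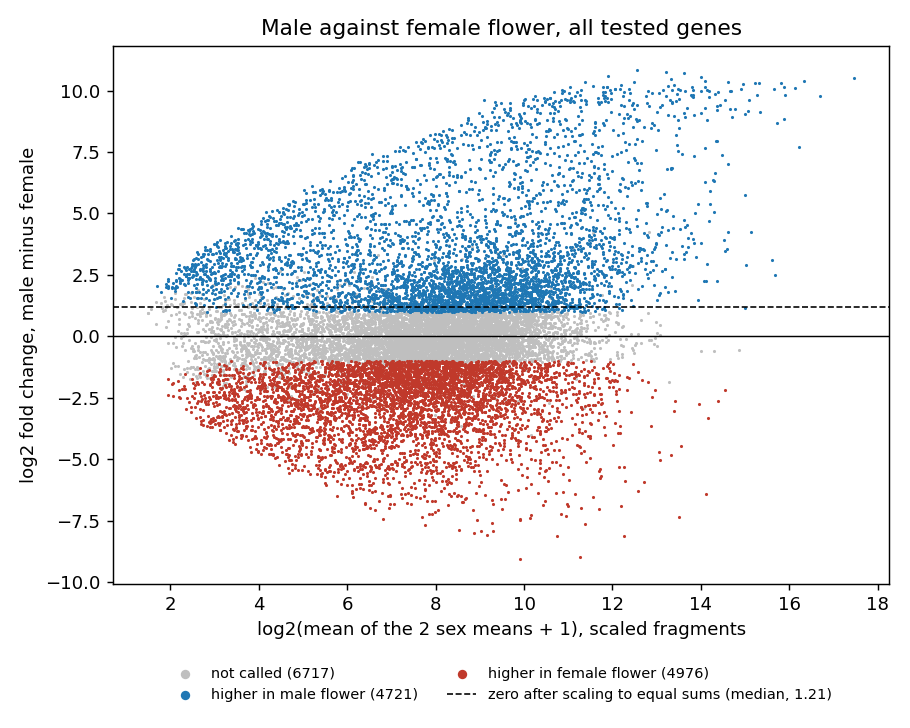
Log2 fold change of male over female flower (vertical axis, deposited scale) against the log2 mean level of the gene in scaled fragments (horizontal axis), with 1 dot per tested gene. Blue dots are the 4721 genes called higher in male flower and red dots the 4976 called higher in female flower; the dashed line at 1.21 is where zero lies after scaling to equal sums.

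Large differences were distributed unevenly between the sexes. Among called genes on the deposited scale, 1315 were at least 16-fold higher in male and 793 at least 16-fold higher in female flower. At 64-fold or more the numbers were 684 and 116, and at 256-fold or more 320 and 5. With equal sums the 16-fold numbers turned to 958 and 1745, while 510 and 377 genes differed at least 64-fold and 186 and 32 at least 256-fold. Thus male flower had the greater number of genes from 64-fold to 256-fold on both scales, and female flower had more 16-fold genes with equal sums. At 1024-fold the counts were 43 and 0 on the deposited scale and 0 and 2 with equal sums.

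**Figure D3:**
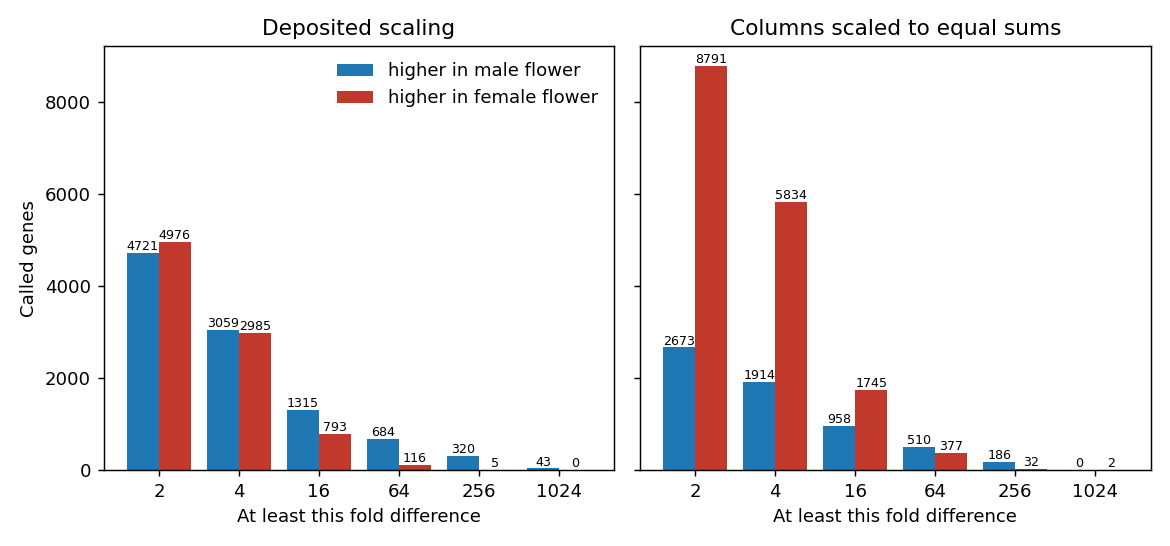
Number of called genes (vertical axis) that differ by at least the fold on the horizontal axis, higher in male (blue) or in female flower (red), on the deposited scale (left) and with columns scaled to equal sums (right). At 256-fold or more, male flower has 320 and 186 genes and female flower 5 and 32; at 2-fold or more, the right panel has 2673 and 8791.

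The direction of the calls varied with the level of the gene, measured as the mean of the male and the female mean. Among 141 genes at 10000 scaled fragments or more, 128 were called higher in male and 10 higher in female flower, and with equal sums 125 and 13. Among the 2251 genes between 1000 and 10000, 1221 (54.2%) were higher in male and 420 (18.7%) in female flower, and with equal sums 823 and 746. Among the 9091 genes between 100 and 1000, 2216 were higher in male and 2756 in female flower, and with equal sums 976 and 5227. Between 10 and 100 the deposited balance also lay with female flower, with 887 of 4127 genes (21.5%) higher in male and 1594 (38.6%) higher in female flower, and with equal sums 548 and 2492. Under 10 it lay with male flower on the deposited scale, at 269 of 804 genes (33.5%) against 196 (24.4%), and with female flower with equal sums, at 201 against 313. A gene that is very high in 1 sex has a high mean by construction, so these classes describe where the calls lie and test nothing.

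Most called genes separated the libraries completely. In 3407 of the 4721 genes called higher in male flower (20.8% of all tested genes) every male library was above every female library. The same held in the other direction for 3430 of the 4976 genes called higher in female flower (20.9% of all tested). Over all tested genes, called or not, the sexes did not overlap in 3697 and 3745 genes. On the equal-sum scale the counts of called genes were 1853 and 6432. Calls and separation come from the same values, so these counts are a description.

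Libraries of male flower differed more among themselves than those of female flower. The SD of log2 values within a sex had a median of 0.730 in male and 0.359 in female flower, and 80.5% of tested genes had the larger SD in male flower. Part of this lay in male replicate 5, without which the male median was 0.534. Replicate 5 was the lowest male library in 51.5% of the genes called higher in male flower and the highest male library in 41.9% of those called higher in female flower. On the female side, replicate 1 was the highest female library in 35.5% of the genes called higher in male flower.

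A core of strongly different genes was then taken on both scales. It holds the genes called in the same direction on both scales at 16-fold or more, with no overlap between the sexes on either scale. Of these, 847 were higher in male flower (5.16% of those tested), while 732 were female-high (4.46%). Without male replicate 5 and female replicate 1 the numbers were 955 and 881, with 812 and 713 genes in common. These genes were chosen by their male and female values, which are given as a description.

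The 847 male genes made up 23.6% of male replicate 5 and 34.6% to 41.6% of the other 6 male libraries. They made up 1.29% of female replicate 1 and 0.227% to 0.258% of the other 5 female libraries. The 732 female genes made up 8.38% to 11.2% of the female libraries and 0.0457% to 0.482% of the male libraries, with the highest male value in replicate 5. By the share of the other sex's genes, replicate 5 was thus the highest male and replicate 1 the highest female library. Whether RNA of the other sex was present in them was not tested.

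Leaf and root were not used to choose these genes, and the 2 sets differed there. Of the 847 male genes, 43.3% stayed under 10 scaled fragments in every one of the 10 leaf and root libraries, against 3.69% of the 732 female genes and 6.78% of all tested genes. The median male gene stood at 3.49 in leaf and 5.01 in root, beside 1741 in male and 6.78 in female flower. The median female gene stood at 64.2 in leaf and 55.6 in root, beside 288 in female and 10.8 in male flower. A mean of 10 or more in leaf was reached by 35.5% of the male and 81.2% of the female genes, and in root by 41.1% and 76.6%. A gene that is silent in leaf and root passes the filter only through the flowers, so the percentages describe the sets and are no test.

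In summed level the male genes took 0.481% to 0.761% of the leaf libraries and 0.483% to 1.21% of the root libraries. These shares were above the 0.227% to 0.258% in female replicates 2 to 6, but below the 1.29% in female replicate 1. The female genes took 1.67% to 7.54% of the leaf and 1.54% to 3.55% of the root libraries. Every one of these leaf and root shares of the female genes was above every male flower share. Both sets were chosen to be low in the other sex, so these orders follow largely from the choice and are no test.

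**Figure D4:**
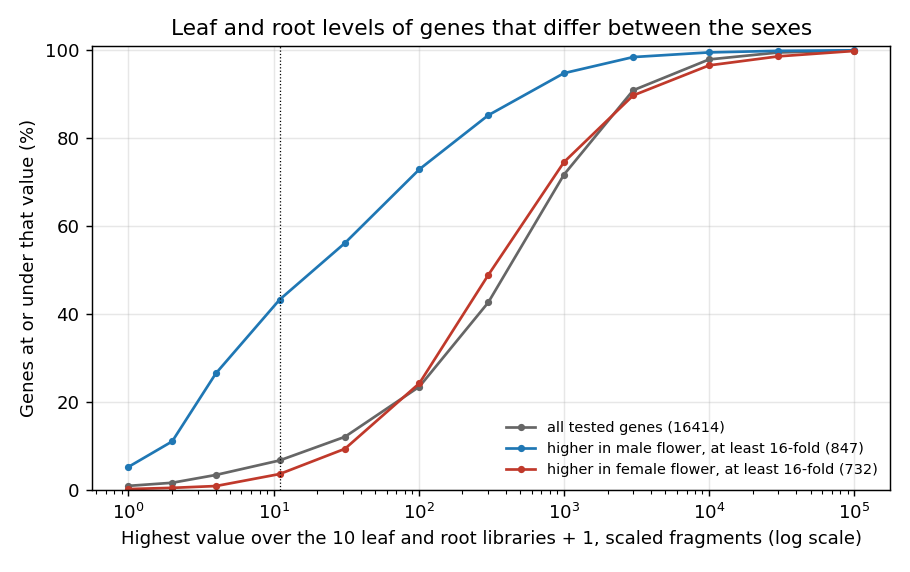
Share of genes (%, vertical axis) whose highest value over the 10 leaf and root libraries lies at or under the value on the horizontal axis (scaled fragments + 1, log scale), for all 16414 tested genes and the 847 male and 732 female genes that differ at least 16-fold. At the dotted line, 10 scaled fragments, the male genes reach 43.3% and the female genes 3.69%.

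The most abundant gene of male flower, Zosma180g00080, stood at 114111 scaled fragments in the lowest male library, 369315 at the median and 601990 in the highest. Its female values were 80.2, 116 and 5245 in the same order, and the 5245 came from replicate 1. The lowest male value lay above the highest female value. This gene and the next ones named were chosen as at least 16-fold different on both scales without overlap. Their lack of overlap and small p-values between the sexes follow largely from that choice and are a description. Zosma180g00080 was at 47.5 to 344 in leaf and at 56.7 to 92.0 in root, far below every male library. It alone held 1.05% to 2.37% of each male library. In limma, male exceeded female flower by 10.52 on the log2 scale, with an SE of 0.833 and a Benjamini-Hochberg adjusted p of 1.13e-07; with equal sums the difference was 9.30.

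Zosma537g00040 was second in male flower by scaled fragments, at 24559, 186364 and 383179 in the lowest, median and highest library. In female flower it stood at 79.6, 122 and 1979, again with the highest value in replicate 1. The lowest male library was replicate 5, and the sexes did not overlap. Per length it exceeded Zosma180g00080, with a male level of 27332 FPKM ± 16813 against 9101 FPKM ± 4146 (SD, n = 7). In root it was at 180 to 409, above all female libraries but replicates 1 and 6. Its log2 fold change was 9.77 (SE 0.766, adjusted p = 1.02e-07, limma), and 8.56 with equal sums.

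On the female side, Zosma342g00050 stood at 9001, 13509 and 27180 in the early libraries, at 48173 and 58319 in the late ones and at 52010 in female replicate 4. The late values were above all early values. Male libraries ran from 130 over 233 to 3150, the last in replicate 2. Leaf was at 14.7 to 490 and root at 68.4 to 864. The log2 difference, male minus female, was -6.41 in limma (SE 0.696, adjusted p = 2.13e-06), and -7.62 with equal sums.

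Zosma38g00400 showed the opposite order of stages within female flower. It stood at 34149, 44020 and 57018 in the early libraries, and at 728 and 1948 in the late ones. Female replicate 4 was at 904, between the late values. In male flower it was at 0, 69.5 and 422 in the lowest, median and highest library, all below the lowest female library. Leaf, at 2.32 to 12.97, and root, at 3.42 to 25.9, were lower than most male libraries. The log2 fold change of male over female flower was -7.36 (SE 1.49, adjusted p = 5.53e-04, limma), and -8.59 with equal sums. Against the late libraries alone it was -4.83, which missed the threshold (adjusted p = 0.0614, limma). In a fit with male, early, late and female replicate 4 as separate groups, late minus early was -5.21 in log2 for Zosma38g00400 (SE 2.00). For Zosma342g00050 it was 1.83 (SE 1.09). Neither difference between stages passed over all genes. The spread between the male libraries enters these SEs, so they do not measure the spread between female libraries alone.

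**Figure D5:**
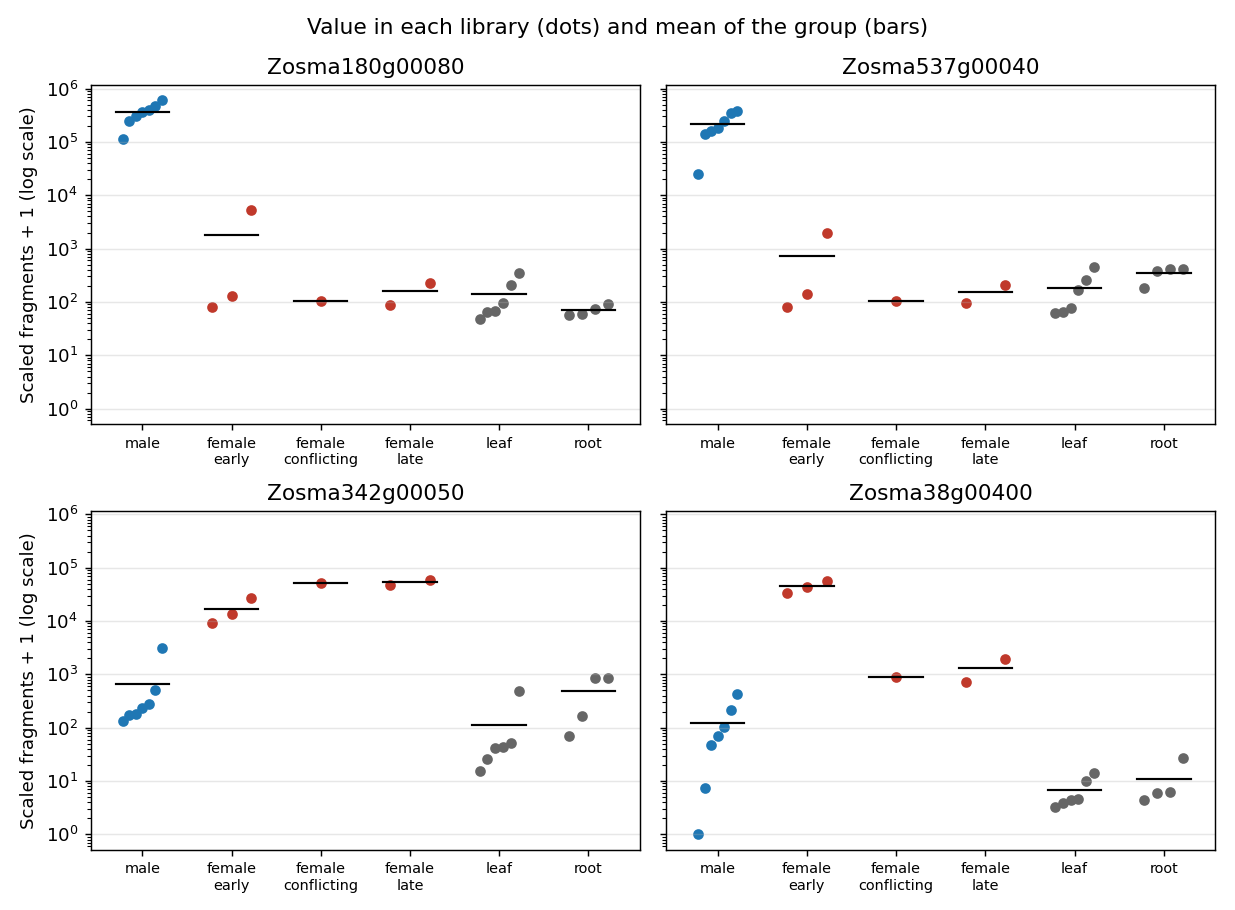
Scaled fragments + 1 (vertical axis, log scale) of 4 genes in each library (dots), by tissue and female stage (horizontal axis); the bars are group means. Zosma180g00080 and Zosma537g00040 are highest in male flower and Zosma342g00050 and Zosma38g00400 in female flower, where female replicate 4 (conflicting labels) lies at 52010 and 904, near the late libraries.

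The calls were also made against each female stage alone, with the same 7 male libraries in both, so that the counts share those libraries and are given side by side. Against the 3 early libraries, 4383 genes were higher in male and 4326 higher in female flower. Against the 2 late libraries the numbers were 3861 and 3930. Of the calls from all 13 libraries, 88.6% of the male and 82.9% of the female ones were made again against early libraries, and 78.8% and 74.9% against late libraries. None of the calls turned direction in either. Both refits use libraries that made the calls from all 13, so this agreement is largely built in. The late refit has 2 female libraries against 3 in the early one, so its lower shares cannot be read as a difference between stages. With equal sums the counts were 2500 and 7911 against early and 2233 and 7334 against late libraries.

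In female flower, the 847 male genes were lower at the late than at the early stage, by a median of 0.59 in log2, and 19.0% of them were higher late than early. That pattern rested on female replicate 1. Without it the median was 0.00 and 48.3% were higher late than early, near the 54.0% of all tested genes.

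Presence in 1 sex alone was rare. Only 14 genes were at 0 in all 6 female libraries and at 10 or more in all 7 male libraries. Against a floor of 3 fragments per library they were at least 11.01-fold to at least 196-fold higher in male flower. Of these 14 genes, 6 were also at 0 in every leaf and root library and 2 reached 10 in some leaf or root library. The count was 40 without female replicate 1 and 23 without male replicate 5. In the other direction 7 genes were at 0 in all male libraries and at 10 or more in all female ones, at least 3.21-fold to at least 8.14-fold higher. All 7 reached 10 in some leaf or root library. Their number was 19 without male replicate 2, 15 without male replicate 5 and 11 without female replicate 3.

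On the deposited scale, zero means less in male than in female flower. The floor of 3 fragments corresponds to 4.34 to 13.6 scaled fragments in the male libraries and to 1.57 to 2.18 in the female libraries. After the authors' factors, a single fragment stood for a median of 1.635 scaled fragments in male and 0.658 in female libraries. Median depth was closer, at 9921625 and 10936364 fragments. The number of genes detected follows the scale as well. With equal sums, 12900 to 14805 genes reached 10 in the male libraries and 14794 to 15182 in the female ones. The mean difference, male minus female, was -1047 genes and had an exact two-sided permutation p of 0.00233 (adjusted p = 0.00233, n = 7 and 6). On the deposited scale the means were 14315 ± 290 and 14418 ± 164, with an exact permutation p of 0.469.

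Some identifiers carry the prefix ZosmaC or ZosmaM. Of 30 ZosmaC genes tested, 25 were called higher in female and 1 in male flower, with a median log2 fold change of -2.52, and with equal sums 26 and 0, with a median of -3.44. Of 44 ZosmaM genes, 11 were called higher in female and 0 in male flower, with a median of -1.61, and with equal sums 26 and 0, with a median of -2.35. Of the 16340 other genes tested, 4940 were higher in female and 4720 in male flower, with a median of -0.09, and with equal sums 8739 and 2673, with a median of -1.27. The share of ZosmaM genes called for female flower was thus near that of the other genes on both scales. However, 0 ZosmaM genes were called for male flower, and their median fold change lay further towards female flower on both scales. For ZosmaC genes the share called for female flower was above that of the other genes on both scales.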

How the data were processed

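RNA enriched for messenger RNA with oligo(dT) was sequenced as paired ends, per the labels' protocols. Cuffdiff 2.2.1, Cuffnorm 2.2.1 and TopHat2 2.0.12 are listed in the submitters' processing notes. What each did, and the build, annotation and strand setting, were not given in the sources used here, so genes with near-identical copies, overlapping genes and antisense genes are uncertain. The deposited signal table holds fragment counts multiplied by 1 factor per library: 99.7% to 99.8% of non-zero values in each of the 13 libraries were whole multiples of 1 step to a tolerance of 0.1, which gave the depth and the floors. Floors cover counting error only. The authors' FPKM table served as an alternative and for levels per length.

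Of 22733 identifiers, 16414 reached 10 in 2 or more of the 13 libraries and were tested, and 3415 were at 0 throughout. The model, on log2(value + 1), was limma 3.58.1 under R 4.3.3 (trend and robust settings), male against female, and p-values were adjusted over all tested genes. Fold changes on this scale understate the change of genes with low values. Equal sums means columns divided by their sum and multiplied by the mean sum. Named are, in each direction, the 2 genes with the highest mean in the higher sex among those at least 16-fold different on both scales without overlap. The identifiers were matched to no names, and the planned lists of genes by product name were not used here. The fit was tested on simulated data. The comparison, rules and lists were chosen with earlier results of these data known. Any pair of libraries of 1 sex differed by more than sampling noise (chi-square over its degrees of freedom at least 17.7), so none were merged. Shares, permutation tests and plots came from scipy 1.17.1, matplotlib 3.10.9, numpy 2.4.6 and pandas 2.3.3 in Python 3.11.15. Alternatives covered pseudocounts, filters, scalings, FPKM, library weights, all 23 libraries, stages, a replicate block and each library left out.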

Additional observations from a re-analysis of the deposited data

Results flagged for a closer look

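In 18 groups of library values examined, 3 had 1 library far from the others. Chance would flag about 1 group in 20 only for independent groups of normally distributed values. The flagged values are unlogged and the groups share libraries, so the count cannot be set against that rate. Zosma180g00080 was at 5245 scaled fragments in female replicate 1, against 80.2 to 226 in the other 5 female libraries. Zosma537g00040 was at 1979 in the same library, against 79.6 to 204. Zosma342g00050 was at 3150 in male replicate 2, against 130 to 506 in the other 6 male libraries. All 3 values lie in the direction of the opposite sex, and the cause was not tested.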

How the results depend on the processing

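Of the choices run, scaling alone moved the counts of called genes by over 1.5 times. With equal sums, 2673 genes were higher in male and 8791 in female flower, and the non-overlapping calls numbered 1853 and 6432. The other settings gave 3861 to 5003 genes higher in male and 3930 to 5804 in female flower. Equal sums outside the 1000 most abundant genes, chosen after seeing the data, gave 4069 and 5804. Leaving out each library in turn gave 4574 to 4850 and 4816 to 5138, and under both scalings 2605 to 2707 and 4816 to 5138. The difference in the share of the 100 most abundant genes ranged from 16.7 to 19.4 percentage points. Male minus female detected genes ranged from -1194 to -876 without single libraries, and was -103 on the deposited scale (exact permutation p = 0.469), -149 at a threshold of 1 (p = 0.562, exact permutation) and -2222 at a threshold of 50 (p = 0.00117, exact permutation). Genes at 0 in every female library numbered 14 to 40, and 4 at a threshold of 50. Genes at 0 in every male library numbered 7 to 19, and 0 at a threshold of 50. With the title number as a replicate block, limma called 4811 and 5033 genes. Same-numbered male and female libraries deviated with correlations from -0.168 to 0.212, and differently numbered ones from -0.224 to 0.193. The numbers thus gave no sign of pairing, though these values cannot exclude it. The 4 named genes kept direction and call in 107 of 108 refits, the exception being Zosma38g00400 against late libraries. The refits reuse the libraries on which these genes were chosen, so this agreement is largely built in and is no independent check. The planned count-based tests were not run, because some values are not whole. Male depth, down to 5696800 fragments, and the larger factors of the male libraries limit statements on zeros.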

Other observations

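Genes that differed strongly between the sexes had consecutive identifiers more frequently than tested genes at large, in a description with no test. Of the 627 male genes at 16-fold or more whose next identifier was also tested, 12.3% had a next identifier in the same set, where 4.79% of all tested genes were followed by one. For the female genes the shares were 7.93% of 580 and 4.49%. Runs of at least 3 consecutive identifiers held 34 of the male and 14 of the female genes, and the longest run was 5 in each. Reads shared between near-identical neighbouring copies could make such values alike, which was not tested.

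Gene length was compared through the ratio of scaled fragments to FPKM, set to 1 at the median tested gene. The 847 male genes had a median relative length of 0.820 (quartiles 0.488 and 1.27) and the 732 female genes one of 0.986 (0.643 and 1.40).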
